A study of Mus musculus with 34 samples.

Results

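The 9 genes examined here encode receptors of the tumor necrosis factor (TNF) family and inhibitors of the transcription factor NF-kB. They were chosen by name, 7 as receptors (*Tnfrsf1a*, *Fas*, *Tnfrsf10b*, *Tnfrsf21*, *Tnfrsf1b*, *Tnfrsf12a* and *Ltbr*) and 2 as feedback inhibitors (*Nfkbia* and *Tnfaip3*), from the 78298 genes of the deposited table. All 9 were among the 14980 genes with enough counts to test. Their transcripts were measured by bulk RNA sequencing in whole liver of WT and SIRT1intKO mice before partial hepatectomy (PHx), and at 6 and 24 hours after it. SIRT1intKO mice carry loxP-flanked *Sirt1* and a Cre driven by the Villin promoter, which removes *Sirt1* from the intestinal epithelium and leaves it in the liver. WT mice were littermates with the loxP-flanked gene and no Cre. All were young adult males on a C57/Bl6 background. The livers at 0 hours came from untreated mice of both genotypes, and those at 6 and 24 hours from mice that had lost the left lateral and median lobes. The labels gave 6 WT libraries at 0 hours, 6 at 6 hours and 4 at 24 hours, and 6, 5 and 7 SIRT1intKO libraries, numbered as biological replicates. For WT livers this differs from the paper's figure legends, which give 5 at 6 hours and 5 at 24 hours. The labels were used here. The library number of WT 6 h replicate 6 falls among those of the 24-hour libraries, and its time point was not checked.

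TNF receptors sit in the plasma membrane as trimers and recruit adaptors that activate NF-kB. Some of them carry a death domain inside the cell, through which they can also start cell death. NF-kB waits in the cytoplasm bound to an inhibitor, IkB-alpha, until that inhibitor is destroyed, and it then switches on inflammatory and survival genes. Among its targets are the genes for IkB-alpha itself (*Nfkbia*) and for the ubiquitin-editing enzyme A20 (*Tnfaip3*), which shut the response down again, so their transcripts are read as a record of recent NF-kB activity. In the liver, TNF signaling through NF-kB is known as a priming signal for hepatocytes after PHx.

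The 2 feedback genes are known to be driven by NF-kB, so the 250 bases before their start sites, from RefSeq on GRCm38.p6, are shown with matches to the kB consensus of NF-kB, read on both strands, in capitals. *Nfkbia* lies on the minus strand at chr12:55492648-55492897, and its match on the opposite strand, GGGAATTTCC, is 29 to 20 bases before the start site. *Tnfaip3* lies on the minus strand at chr10:19015411-19015660, with GGGACACCCC on its own strand 125 to 116 bases before the start and GGGGATTTCC on the opposite strand 12 to 3 bases before it.
Nfkbia: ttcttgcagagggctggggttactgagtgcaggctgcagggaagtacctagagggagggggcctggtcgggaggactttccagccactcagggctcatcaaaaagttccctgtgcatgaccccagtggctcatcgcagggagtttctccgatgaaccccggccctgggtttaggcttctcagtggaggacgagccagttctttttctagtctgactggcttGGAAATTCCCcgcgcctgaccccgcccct
Tnfaip3: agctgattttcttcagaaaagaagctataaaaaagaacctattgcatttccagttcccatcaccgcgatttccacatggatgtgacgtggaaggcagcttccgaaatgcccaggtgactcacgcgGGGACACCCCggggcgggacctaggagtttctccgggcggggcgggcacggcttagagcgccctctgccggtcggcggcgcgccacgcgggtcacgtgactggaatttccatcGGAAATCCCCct
Of the 9 genes, 8 had a window in the RefSeq table, and *Tnfrsf10b* did not. The first windows of *Nfkbia* and *Tnfaip3* were the 2 that held a match, against 3.9% of the 32851 windows of all genes. A second window of *Tnfaip3*, for another start site, held 0 matches, as did the windows of the other 6 receptors. A match describes these letters and is not a measured binding site.

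Counts per library ranged from 14892122 to 23480492, and levels are given as CPM, the count divided by library size after TMM scaling. A gene is called higher or lower at an edgeR adjusted p under 0.05 with an absolute log2 fold change over 1. Genotype was not checked by hepatic *Sirt1*, which the Cre does not reach. A library of the untreated WT group, WT 0 h replicate 2, stood apart before surgery. It had the highest level of 22 of 28 tested NF-kB target genes and of 5 of the 9 genes studied among the 12 libraries at 0 hours, and 33 counts of *Tnf* against 2 to 10 in the other 11. SIRT1intKO 24 h replicate 4 was the highest of its group for 5 of the 9 genes, and SIRT1intKO 24 h replicate 2 for 2 of them, for 17 of the 28 NF-kB targets and for neutrophil markers. For named genes, calls against 0 hours or between genotypes at 24 hours that were lost or gained without 1 of these 3 libraries are given where the gene is described. The libraries at 0 hours are numbered in a series of their own, so a difference in handling cannot be told apart from the change after PHx. In whole liver, fewer cells of a type and less RNA per cell cannot be told apart either.

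Per kilobase of exon (GENCODE vM21 lengths), *Nfkbia*, *Tnfrsf1a* and *Ltbr* were the most abundant of the 9 transcripts at 0 hours. In WT livers their means were 28.4, 24.8 and 24.8 CPM per kilobase, with ranges over libraries that overlapped (19.5 to 50.9, 20.3 to 33.4 and 22.4 to 28.7). *Fas* at 8.20 and *Tnfrsf1b* at 7.42 followed and overlapped each other as well, then *Tnfrsf12a* at 3.90 and *Tnfrsf21* at 1.44. *Tnfaip3* at 0.656 and *Tnfrsf10b* at 0.0556 were lowest, and *Tnfrsf10b* ranged from 0.0281 to 0.0988. The SIRT1intKO livers had the same 3 genes on top at 0 hours, from 22.8 to 25.1, and the same 2 at the bottom, 0.256 for *Tnfaip3* and 0.0509 for *Tnfrsf10b*. At 24 hours *Tnfrsf12a* had moved to first place, with 67.6 CPM per kilobase in WT and 73.1 in SIRT1intKO livers, although its WT range of 10.6 to 124 spanned those of *Tnfrsf1a* (47.1 to 74.9) and *Ltbr* (42.8 to 59.8).

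**Figure D1:**
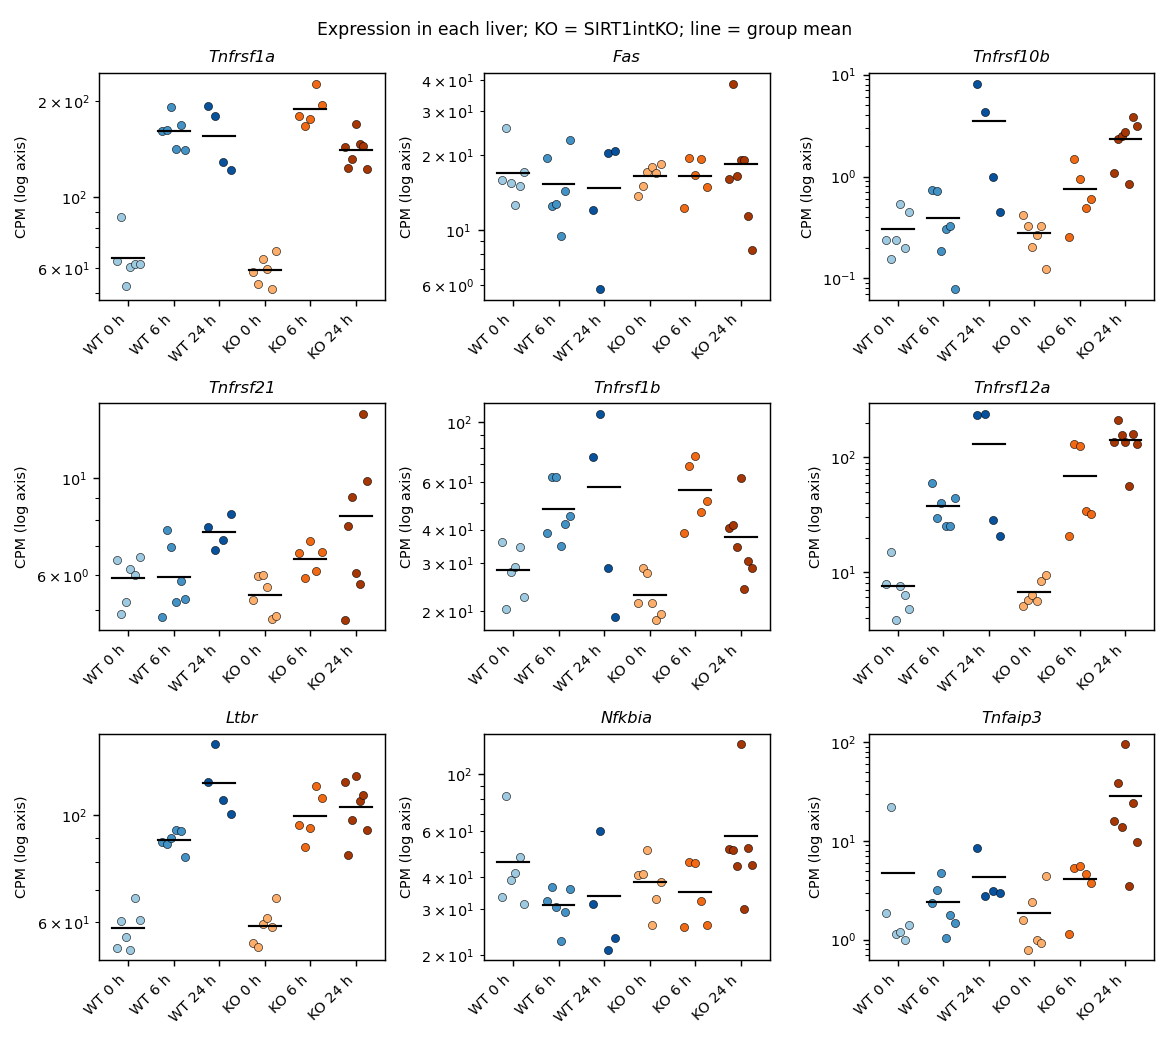
Each panel plots CPM on a log axis for 1 gene, with a point for each of the 34 livers in the 6 groups and a line at the group mean. *Tnfrsf1a*, *Tnfrsf12a* and *Ltbr* lay above every 0-hour liver of their genotype at both times after PHx, the WT livers at 24 hours split into a higher and a lower pair for *Tnfrsf12a*, and *Tnfaip3* was highest in SIRT1intKO livers at 24 hours, where it ranged from 3.47 to 96.0 CPM. Groups that did not overlap, in either direction, were found for 3608 and 2887 of 14980 tested genes in WT livers at 6 and 24 hours, and for 3924 and 3295 in SIRT1intKO livers.

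After PHx, *Tnfrsf1a* and *Tnfrsf12a* were called higher at both times and in both genotypes. The paper already lists both as raised at 6 hours in WT and SIRT1intKO livers of this data set. The 9 genes were chosen with earlier results of these data known, so their counts beside the shares of all genes are descriptions. At 6 hours against 0 hours, 2 of the 9 genes were called higher in WT livers (*Tnfrsf1a* and *Tnfrsf12a*), against 7.17% of all genes tested, and 3 in SIRT1intKO livers (the same 2 and *Tnfrsf1b*), against 7.86%. At 24 hours 4 were called higher in WT livers (*Tnfrsf1a*, *Tnfrsf1b*, *Tnfrsf12a* and *Tnfrsf10b*), against 8.32%, and 4 in SIRT1intKO livers (*Tnfrsf1a*, *Tnfrsf12a*, *Tnfrsf10b* and *Tnfaip3*), against 11.9%. None was called lower, where 8.4% and 7.4% of all genes were lower in WT livers at 6 and 24 hours, and 8.7% and 11.1% in SIRT1intKO livers. By the adjusted p alone, the genes that rose numbered 4 and 5 of 9 in WT livers at 6 and 24 hours (18.9% and 19.5% of all genes), and 4 and 7 of 9 in SIRT1intKO livers (20.9% and 26.2%). The 9 genes together had median log2 fold changes of 0.37 and 1.00 in WT and 1.14 and 0.82 in SIRT1intKO livers at 6 and 24 hours, beside medians of all genes between 0.01 and 0.04. At 6 and 24 hours the groups did not overlap with 0 hours for 3 and 4 of the 9 genes in WT livers (3608 and 2887 of all 14980). For SIRT1intKO livers it was 4 and 4 of the 9 (3924 and 3295 of all). Between 24 and 6 hours in WT livers it was 1 of the 9 (1103 of all).

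**Figure D2:**
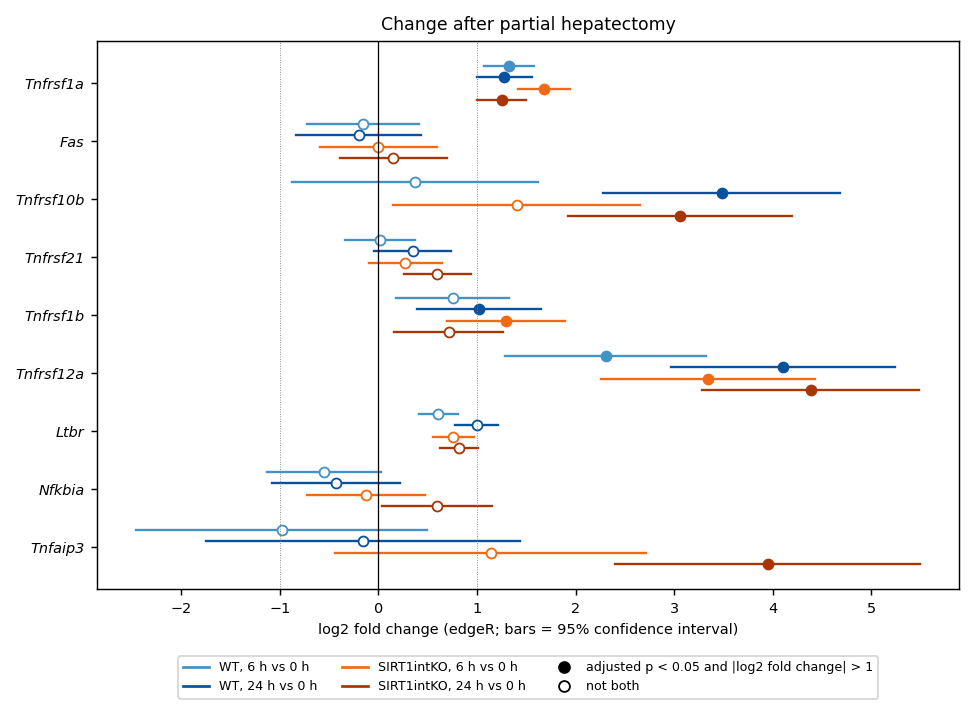
Log2 fold changes against 0 hours for the 9 genes, with 95% confidence intervals from edgeR, in WT (blue) and SIRT1intKO livers (orange) at 6 and 24 hours. Filled points passed both the adjusted p and the fold threshold, as *Tnfrsf1a* and *Tnfrsf12a* did in all 4 comparisons and *Tnfaip3* did at 24 hours in SIRT1intKO livers alone.

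*Tnfrsf1a* (ENSMUSG00000030341, chromosome 6) encodes TNFR1, the death-domain receptor through which TNF itself mainly acts on hepatocytes. Before surgery it lay between 52.5 and 86.5 CPM in WT livers (median 61.6) and between 51.3 and 67.7 in SIRT1intKO livers (median 58.9). At 6 hours it lay between 140.5 and 192 (median 162) in WT livers and was 180, 168, 177, 227 and 194 in the 5 SIRT1intKO livers. All 11 livers at 6 hours were above all 12 at 0 hours. At 24 hours the 4 WT livers had 194, 179, 129 and 122 CPM and the 7 SIRT1intKO livers 123 to 170 (median 144), so the rise was still present. The log2 fold change at 24 hours was 1.28 in WT (edgeR adjusted p = 7.92e-08, SE 0.136) and 1.25 in SIRT1intKO livers (edgeR adjusted p = 5.16e-09, SE 0.122). Between 6 and 24 hours *Tnfrsf1a* fell in SIRT1intKO livers by 0.43 on the log2 scale (edgeR adjusted p = 0.0104, SE 0.124), short of the fold threshold. In WT livers this difference was -0.05 (edgeR adjusted p = 0.856, SE 0.138). glmTreat, which tests against the fold threshold itself, did not call either genotype at 24 hours (adjusted p = 0.108 and 0.0555).

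*Ltbr* (ENSMUSG00000030339) encodes the lymphotoxin-beta receptor, which activates the noncanonical NF-kB pathway and has no death domain. It lies 35.8 kb from *Tnfrsf1a* on chromosome 6, counted between start sites that point away from each other, with *Scnn1a* between them (GRCm38.p6). WT livers had 52.6 to 67.6 CPM at 0 hours (median 58.1), 82.2 to 93.1 at 6 hours (median 89.0), and 117, 141, 108 and 101 at 24 hours. SIRT1intKO livers had 53.4 to 67.4 at 0 hours (median 59.1), then 95.7, 86.2, 94.1, 115 and 109 at 6 hours, and 82.9 to 121 at 24 hours (median 107). The groups after PHx did not overlap with those before it in either genotype. *Ltbr* rose at 6 hours by 0.61 on the log2 scale in WT (edgeR adjusted p = 1.34e-05, SE 0.0979) and 0.76 in SIRT1intKO livers (edgeR adjusted p = 1.24e-06, SE 0.102). At 24 hours it had risen by 1.00 in WT (edgeR adjusted p = 7.93e-08, SE 0.107) and 0.82 in SIRT1intKO livers (edgeR adjusted p = 7.44e-08, SE 0.0952). The WT value at 24 hours lay just below the fold threshold, and leaving out WT 0 h replicate 2 or SIRT1intKO 24 h replicate 2 put it just above, at 1.01. *Ltbr* also rose from 6 to 24 hours in WT livers, by 0.39 (edgeR adjusted p = 0.0123, SE 0.108), and all 4 WT livers at 24 hours were above the 6 at 6 hours. In SIRT1intKO livers that difference was 0.06 (edgeR adjusted p = 0.688, SE 0.0988). Whether the difference between 6 and 24 hours itself differed between genotypes was not tested for either gene.

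*Tnfrsf12a* (ENSMUSG00000023905, chromosome 17) had the largest log2 fold changes against 0 hours of the 9 genes, in both genotypes and at both times. It encodes Fn14, the receptor for TWEAK (*Tnfsf12*), which lacks a death domain and is known from injured and regenerating epithelium. In WT livers it went from 3.84 to 14.9 CPM at 0 hours (median 6.93) to 25.1 to 59.9 at 6 hours (median 34.9). In SIRT1intKO livers it went from 5.03 to 9.50 (median 6.03) to 20.7, 129.8, 127, 34.2 and 32.2. Every liver at 6 hours was above every liver at 0 hours, and 2 of the 5 SIRT1intKO livers were far above the other 3.

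At 24 hours the 4 WT livers had 233, 240.3, 28.4 and 20.5 CPM of *Tnfrsf12a*, a high pair and a low pair of which the low pair lay within or below the range at 6 hours. The 7 SIRT1intKO livers had 56.3 to 211 CPM (median 137). *Tnfrsf12a* rose against 0 hours by 4.11 on the log2 scale in WT (edgeR adjusted p = 3.29e-06, 95% confidence interval 2.97 to 5.24, SE 0.558) and 4.39 in SIRT1intKO livers (edgeR adjusted p = 1.67e-07, interval 3.29 to 5.48, SE 0.539). From 6 to 24 hours it rose in WT livers by 1.80 (edgeR adjusted p = 0.0165, SE 0.520), a call that was lost without WT 24 h replicate 1 (1.41) or replicate 2 (1.35). In SIRT1intKO livers the difference between 6 and 24 hours was 1.04 (edgeR adjusted p = 0.109, SE 0.489). The same pair of WT livers, replicates 1 and 2, also had the higher levels of *Tnfrsf1b* and *Tnfrsf10b*, and by a smaller margin of *Tnfrsf1a*, *Ltbr* and *Nfkbia*.

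*Tnfrsf1b* (ENSMUSG00000028599, chromosome 4) encodes TNFR2, the receptor without a death domain that is best known from leukocytes and endothelium. It lay between 20.4 and 35.95 CPM in WT livers (median 28.4) and between 18.5 and 28.7 in SIRT1intKO livers (median 21.4) at 0 hours. At 6 hours it was 34.7 to 62.8 (median 43.6) in WT livers, and 38.9, 68.9, 74.9, 46.5 and 51.3 in SIRT1intKO livers, all 5 of them above their 0-hour group. At 24 hours the WT livers had 74.4, 108, 28.9 and 18.9 CPM, with the pair of high values again in replicates 1 and 2 and replicate 4 below every WT liver at 0 hours. The SIRT1intKO livers had 24.1 to 62.2 at 24 hours (median 34.5). *Tnfrsf1b* rose at 6 hours by 0.75 in WT (edgeR adjusted p = 0.0338, SE 0.280) and 1.29 in SIRT1intKO livers (edgeR adjusted p = 0.000847, SE 0.294). The WT value at 6 hours lost its adjusted p without WT 0 h replicate 2, 3 or 6 or WT 6 h replicate 2 or 3, and was 0.67 without WT 0 h replicate 2 (edgeR adjusted p = 0.0751) and 0.64 without WT 6 h replicate 3 (edgeR adjusted p = 0.0939). At 24 hours it had risen by 1.02 in WT (edgeR adjusted p = 0.0109, SE 0.307) and by 0.71 in SIRT1intKO livers (edgeR adjusted p = 0.0299, SE 0.273). The WT call at 24 hours was lost without WT 24 h replicate 1 (0.89) or replicate 2 (0.53) and without WT 0 h replicate 2 (0.94) or replicate 6 (0.97). The SIRT1intKO value lost its adjusted p without SIRT1intKO 24 h replicate 4 (0.54, edgeR adjusted p = 0.0966).

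*Tnfrsf10b* (ENSMUSG00000022074, chromosome 14) encodes the mouse receptor for TRAIL, a death-domain receptor. It was the scarcest of the 9 transcripts, with fewer than 10 counts in 18 of the 34 libraries, so its levels before 24 hours rest on few reads. At 0 hours the libraries held 3 to 10 counts in WT and 2 to 7 in SIRT1intKO livers. At 6 hours they held 1 to 12 and 4 to 21. The log2 fold changes at 6 against 0 hours were 0.37 in WT (edgeR adjusted p = 0.672, SE 0.613) and 1.40 in SIRT1intKO livers (edgeR adjusted p = 0.0698, SE 0.614). The latter was called without SIRT1intKO 6 h replicate 1 or WT 24 h replicate 4. At 24 hours the 4 WT livers held 133, 75, 19 and 9 counts (8.18, 4.28, 0.995 and 0.448 CPM), in the same order of pairs as *Tnfrsf12a*. The 7 SIRT1intKO livers at 24 hours held 18 to 101 counts, 0.845 to 3.85 CPM (median 2.50), all above the 6 at 0 hours (0.124 to 0.414). By 24 hours *Tnfrsf10b* had risen by 3.48 on the log2 scale in WT (edgeR adjusted p = 5.39e-05, SE 0.590) and 3.06 in SIRT1intKO livers (edgeR adjusted p = 4.53e-05, SE 0.558). It also rose from 6 to 24 hours, by 3.11 in WT (edgeR adjusted p = 0.000504, SE 0.580) and 1.65 in SIRT1intKO livers (edgeR adjusted p = 0.0204, SE 0.532). The latter call was lost without SIRT1intKO 6 h replicate 1 or replicate 4 and with glmTreat. Of the 9 genes, 2 were called higher from 6 to 24 hours in WT livers (*Tnfrsf12a* and *Tnfrsf10b*, against 4.44% of all genes), and 2 in SIRT1intKO livers (*Tnfrsf10b* and *Tnfaip3*, against 6.7%).

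The other death-domain receptors passed the fold threshold in no comparison. *Tnfrsf21* (ENSMUSG00000023915, chromosome 17), or DR6, was at 4.90 to 6.60 CPM in WT livers at 0 hours (median 6.10), 4.81 to 7.59 at 6 hours (median 5.55), and 7.75, 6.86, 7.23 and 8.26 at 24 hours. SIRT1intKO livers had 4.78 to 6.01 at 0 hours (median 5.45), then 6.73, 5.92, 7.17, 6.13 and 6.77, and 4.76 to 13.99 at 24 hours (median 7.78), where replicate 6 was highest. *Tnfrsf21* rose by 24 hours in SIRT1intKO livers, by 0.60 on the log2 scale (edgeR adjusted p = 0.0039, SE 0.168), below the fold threshold. In WT livers the 4 values at 24 hours were above the 6 at 0 hours, with a log2 fold change of 0.35 (SE 0.192) that did not pass (edgeR adjusted p = 0.158).

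*Fas* (ENSMUSG00000024778, chromosome 19) encodes the death receptor for Fas ligand, to which hepatocytes are known to be very sensitive. It passed the test in no comparison. WT livers had 12.5 to 25.7 CPM at 0 hours (median 15.6), 9.45 to 22.96 at 6 hours (median 13.5), and 11.99, 5.77, 20.4 and 20.7 at 24 hours. Here WT 24 h replicates 1 and 2 were the low pair. SIRT1intKO livers had 13.7 to 18.3 at 0 hours (median 16.99), 12.2, 19.4, 16.5, 19.3 and 14.9 at 6 hours, and 8.32 to 38.7 at 24 hours (median 16.4). The 95% confidence intervals of its log2 fold changes against 0 hours were -0.72 to 0.41 and -0.84 to 0.43 in WT livers at 6 and 24 hours, and -0.60 to 0.59 and -0.39 to 0.70 in SIRT1intKO livers. Changes of the size seen for *Tnfrsf1a* lie outside these intervals.

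Of the feedback genes, *Nfkbia* (ENSMUSG00000021025, chromosome 12), which encodes IkB-alpha, was called in no comparison. WT livers had 31.4 to 81.9 CPM at 0 hours (median 40.0), 22.6 to 36.5 at 6 hours (median 31.5), and 31.5, 60.0, 20.9 and 23.3 at 24 hours. The highest value at 0 hours was WT replicate 2, with 47.8 the next. SIRT1intKO livers had 26.04 to 50.7 at 0 hours (median 39.5), 25.7, 45.7, 45.5, 32.2 and 26.2 at 6 hours, and 30.1 to 130.5 at 24 hours (median 51.0). The highest of these was replicate 4, with 52.0 the next, and 6 of the 7 were above the mean at 0 hours. The log2 fold changes against 0 hours were -0.55 (edgeR adjusted p = 0.125, SE 0.282) and -0.43 (edgeR adjusted p = 0.302, SE 0.318) in WT livers at 6 and 24 hours. They were -0.13 (edgeR adjusted p = 0.765, SE 0.296) and 0.59 (edgeR adjusted p = 0.0695, SE 0.273) in SIRT1intKO livers. None passed, and the largest shrank to 0.25 without SIRT1intKO 24 h replicate 4.

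*Tnfaip3* (ENSMUSG00000019850, chromosome 10), which encodes A20, rose in SIRT1intKO livers at 24 hours. In 11 of the 12 livers before surgery it lay between 0.789 and 4.41 CPM, and in WT 0 h replicate 2 it stood at 21.9 CPM, or 428 counts. WT livers had 1.04 to 4.73 CPM at 6 hours (median 2.05) and 8.49, 2.74, 3.09 and 2.99 at 24 hours. SIRT1intKO livers had 1.15, 5.28, 5.60, 4.67 and 3.77 at 6 hours. At 24 hours the 7 SIRT1intKO livers had 15.8, 38.5, 13.8, 96.0, 3.47, 24.2 and 9.72 CPM, and 6 of them were above every SIRT1intKO liver at 0 and 6 hours. *Tnfaip3* rose there by a log2 fold change of 3.95 against 0 hours (edgeR adjusted p = 8.81e-05, 95% interval 2.4 to 5.5, SE 0.760) and 2.81 against 6 hours (edgeR adjusted p = 0.00652, SE 0.759). Without replicate 4 the rise against 0 hours was 3.23 (edgeR adjusted p = 0.000391).

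The change of *Tnfaip3* in WT livers depended on WT 0 h replicate 2. With all 6 livers at 0 hours the log2 fold change at 24 hours was -0.16 (edgeR adjusted p = 0.892, SE 0.781), and without that liver it was 1.70 (edgeR adjusted p = 0.049), which passed both thresholds. The value at 6 hours turned from -0.98 (edgeR adjusted p = 0.303, SE 0.724) to 0.88 (edgeR adjusted p = 0.295). All 4 WT livers at 24 hours were above the other 5 at 0 hours, whose highest was 1.85 CPM.

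**Figure D3:**
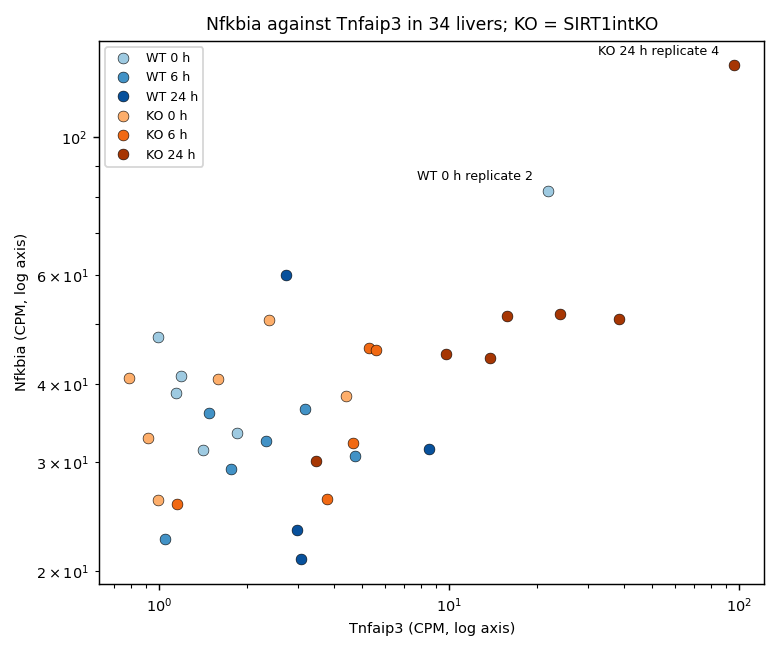
*Nfkbia* against *Tnfaip3* in CPM on log axes, a point for each of the 34 livers, colored by group. WT 0 h replicate 2 (21.9 CPM of *Tnfaip3*, 81.9 of *Nfkbia*) and SIRT1intKO 24 h replicate 4 (96.0 and 130.5) lay in the upper right corner, and 5 of the other 6 SIRT1intKO livers at 24 hours lay to the right of all remaining livers.

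The deletion of *Sirt1* in the intestine was compared with WT at each time. Before surgery and at 6 hours 0 of the 9 genes were called between genotypes, as for all genes (0% at both times), 0 by DESeq2 for the 9 genes, and 0 of the 9 with an unadjusted p under 0.05. At 24 hours 1 of the 9 was called higher in SIRT1intKO livers, *Tnfaip3*, against 1.38% of all genes called higher. It had 28.8 ± 31.7 CPM (SD, n = 7) against 4.33 ± 2.78 (SD, n = 4), which was 2.74 on the log2 scale (edgeR adjusted p = 0.0448, interval 1.05 to 4.42, SE 0.826). The groups overlapped, since replicate 5 had 3.47 CPM and WT replicate 1 had 8.49. This call was close to its threshold. Leaving out single libraries ended it in 9 of 34 cases, namely WT 6 h replicate 5, SIRT1intKO 0 h replicates 1 and 3, SIRT1intKO 24 h replicates 2, 4 and 6 (2.02 without replicate 4, edgeR adjusted p = 0.098), and WT 24 h replicates 2, 3 and 4. It also ended when only the groups compared were fitted (edgeR adjusted p = 0.259).

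For the other 8 genes the differences between genotypes at 24 hours did not pass the test. *Nfkbia* was 0.77 higher in SIRT1intKO livers (edgeR adjusted p = 0.132, interval 0.13 to 1.40, SE 0.313), and 0.42 without SIRT1intKO 24 h replicate 4. Without WT 24 h replicate 2, the highest of its group, it was 1.19 and passed both thresholds (edgeR adjusted p = 0.0384). *Tnfrsf1b* was -0.62 (edgeR adjusted p = 0.204, interval -1.22 to -0.01, SE 0.297). The intervals were narrow for *Tnfrsf1a* (-0.42 to 0.12), *Ltbr* (-0.38 to 0.05) and *Tnfrsf21* (-0.26 to 0.50), so differences over 1 on the log2 scale lay outside them. The interval of *Fas* was wider (-0.30 to 0.93) but also lay within 1 of 0. Those of *Tnfrsf10b* (-1.57 to 0.48) and *Tnfrsf12a* (-0.92 to 1.15) did not. At 6 hours the widest were *Tnfrsf10b* (-0.29 to 2.12) and *Tnfaip3* (-0.80 to 2.30), and *Tnfrsf1a* had a difference of 0.23 (interval -0.03 to 0.50, edgeR adjusted p = 0.774).

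Whether the change after PHx differed between genotypes is tested by the interaction. It was called by edgeR for 0 of the 9 genes at 6 hours (0 by DESeq2, and 0 with an unadjusted p under 0.05), with 0% of all genes, and for 0 at 24 hours, with 0.00668% of all genes, which is 1 gene. At 24 hours 2 of the 9 had an unadjusted p under 0.05, *Tnfaip3* and *Nfkbia*, as did 1904 of all 14980 genes (12.7%). The largest was *Tnfaip3* at 24 hours, with a difference in log2 fold change of 4.11 (SE 1.10, interval 1.87 to 6.34, unadjusted p = 0.000723, edgeR adjusted p = 0.143). It was called by DESeq2 (4.09, adjusted p = 0.0206) and without SIRT1intKO 24 h replicate 5. The value fell to 2.24 without WT 0 h replicate 2 (edgeR adjusted p = 0.29) and to 1.53 when SIRT1intKO 24 h replicate 4 was left out as well (edgeR adjusted p = 0.372). *Nfkbia* had 1.03 (edgeR adjusted p = 0.3, SE 0.419) and 0.43 without both. At 6 hours *Tnfaip3* had 2.12 (edgeR adjusted p = 1, SE 1.06), which became 0.26 without WT 0 h replicate 2, and *Tnfrsf1a* had 0.35 (edgeR adjusted p = 1, SE 0.179).

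**Figure D4:**
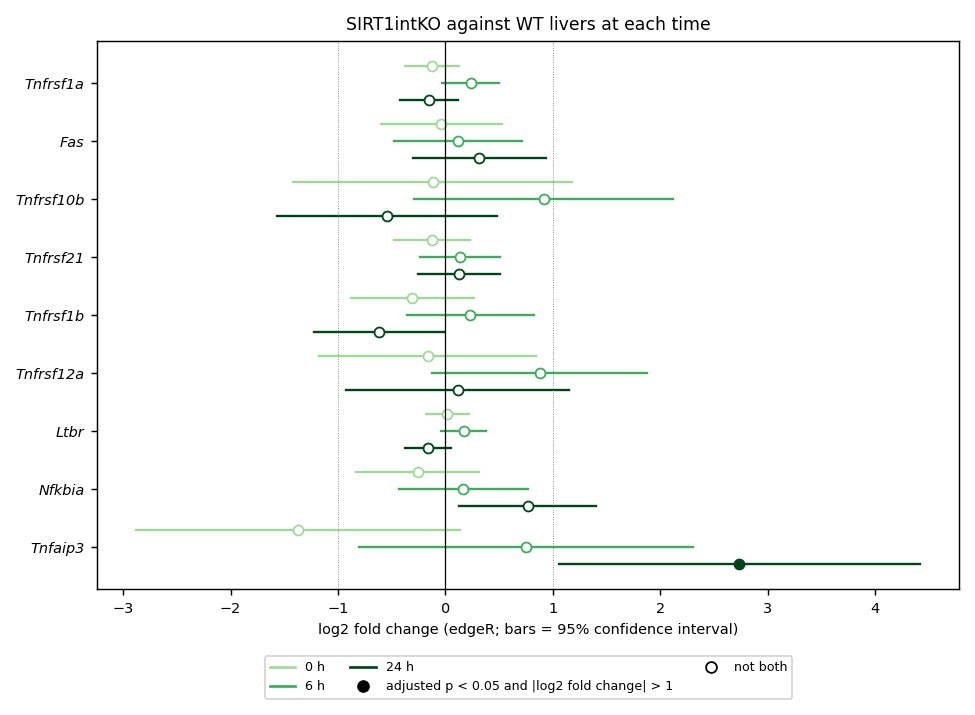
Log2 fold changes of SIRT1intKO against WT livers at 0, 6 and 24 hours for the 9 genes, with 95% confidence intervals from edgeR. Only *Tnfaip3* at 24 hours, at 2.74, passed both thresholds (filled point), and the intervals of *Tnfrsf1a*, *Ltbr*, *Tnfrsf21* and *Fas* lay within 1 of 0 at all 3 times.

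Of 19 listed TNF family ligands, 9 had enough counts to test, and the genes for Fas ligand (Fasl) and lymphotoxin-alpha (Lta) were not among them. *Tnfsf12*, which encodes the ligand of Fn14, rose from a mean of 10.4 CPM at 0 hours to 18.2 at 24 hours in WT livers (0.80 on the log2 scale, edgeR adjusted p = 0.00049) and from 10.9 to 16.3 in SIRT1intKO livers (0.59, edgeR adjusted p = 0.00134), below the fold threshold. *Tnfsf10*, which encodes TRAIL, fell from 1.48 to 0.479 CPM in WT (-1.59, edgeR adjusted p = 0.0171) and from 1.59 to 0.536 in SIRT1intKO livers (-1.54, edgeR adjusted p = 0.00311). *Tnf* itself had 0 to 3 counts per library at 6 hours in either genotype and 0 to 8 in WT livers at 24 hours. In SIRT1intKO livers at 24 hours it had 25, 27, 11, 38, 6, 24 and 6 counts, and *Tnf* was called higher than at 0 hours with a log2 change of 1.69 (edgeR adjusted p = 0.0225, SE 0.613). That call was lost without SIRT1intKO 24 h replicate 2 (1.47, edgeR adjusted p = 0.0522) or replicate 4 (1.43, edgeR adjusted p = 0.0592). In WT livers at 6 hours *Tnf* was called lower (-2.64, edgeR adjusted p = 0.0089), and without WT 0 h replicate 2 it was not (-1.71, edgeR adjusted p = 0.0857). Between genotypes at 24 hours *Tnf* had 2.23 (edgeR adjusted p = 0.0637, SE 0.735), with an edgeR adjusted p of 0.041 without WT 0 h replicate 2. Of the 9 tested ligands, 2 were called higher and 1 lower in SIRT1intKO livers at 24 hours (median log2 fold change 0.66), and 1 and 1 in WT livers (median 0.39). The shares of all genes were 11.9% higher and 11.1% lower in SIRT1intKO livers, and 8.32% and 7.4% in WT livers.

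Of the 21 other receptor genes of the family, 10 could be tested. In SIRT1intKO livers at 24 hours 5 were called higher and 1 lower (median 0.98), against 11.9% and 11.1% of all genes. In WT livers 1 and 1 were called (median 0.10), against 8.32% and 7.4%. *Tnfrsf23*, a decoy receptor for TRAIL, rose most, from 0.467 to 10.6 CPM in WT livers (log2 fold change 4.45, SE 0.785, edgeR adjusted p = 8.5e-05) and from 0.447 to 8.48 CPM in SIRT1intKO livers (4.21, SE 0.752, edgeR adjusted p = 3.39e-05). *Tnfrsf11b*, the soluble decoy osteoprotegerin, rose in SIRT1intKO livers from 1.43 to 3.04 CPM (1.08, SE 0.329, edgeR adjusted p = 0.00713). *Ngfr*, the neurotrophin receptor p75, fell at 6 hours in both genotypes, with a log2 fold change in WT livers of -1.96 (edgeR adjusted p = 0.000386) and in SIRT1intKO livers of -1.74 (edgeR adjusted p = 0.00217).

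Among 25 receptor adaptors and kinases, all of them tested, 3 were called higher and 0 lower in WT livers at 24 hours (median 0.24), and 4 higher and 0 lower in SIRT1intKO livers (median 0.34), where 8.32% and 11.9% of all genes were called higher. Without SIRT1intKO 24 h replicate 2 or 4 the latter count was 3. *Map3k14*, which encodes the NF-kB inducing kinase NIK of the noncanonical pathway, rose in WT livers by 1.67 (edgeR adjusted p = 0.00021, SE 0.318) and in SIRT1intKO livers by 1.43 (edgeR adjusted p = 0.000171, SE 0.292). *Mlkl*, the executioner of necroptosis, rose by 1.25 in WT (edgeR adjusted p = 9.02e-05, SE 0.222) and 2.10 in SIRT1intKO livers (edgeR adjusted p = 4.69e-09, SE 0.204). *Traf6*, an adaptor, rose in WT livers by 1.05 (edgeR adjusted p = 0.000242). *Birc3* and *Birc2*, the cIAP ubiquitin ligases of the TNF receptor complex, rose in SIRT1intKO livers by 1.87 (edgeR adjusted p = 0.000165) and 1.01 (edgeR adjusted p = 0.000839), and *Birc2* was below the fold threshold without replicate 2 (0.62) or replicate 4 (0.90). *Birc3* was also called higher in SIRT1intKO than in WT livers at 24 hours, at 1.38 (edgeR adjusted p = 0.0489, SE 0.427), a call lost without SIRT1intKO 24 h replicate 2 (0.88, edgeR adjusted p = 0.153) or replicate 4 (1.18, edgeR adjusted p = 0.085).

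Of the 5 NF-kB subunits, 3 were called higher in SIRT1intKO livers at 24 hours and 0 in WT livers, against 11.9% and 8.32% of all genes. In SIRT1intKO livers *Relb* rose by 2.45 (edgeR adjusted p = 0.000217, SE 0.509), *Nfkb2* by 1.72 (edgeR adjusted p = 0.000238, SE 0.361) and *Nfkb1* by 1.11 (edgeR adjusted p = 0.000126, SE 0.220), which was 0.81 and below the fold threshold without SIRT1intKO 24 h replicate 2. *Rela*, the main transactivating subunit, rose by 0.52 in both genotypes (edgeR adjusted p = 0.00516 in SIRT1intKO and 0.021 in WT livers), below the fold threshold, and *Rel* was not called (0.48, edgeR adjusted p = 0.12). The WT values were 0.26 for *Relb*, 0.30 for *Nfkb2* and 0.45 for *Nfkb1*, each with an edgeR adjusted p over the threshold. Without WT 0 h replicate 2 they were 1.03 for *Relb* (edgeR adjusted p = 0.117), 0.86 for *Nfkb2* (edgeR adjusted p = 0.0601) and 0.55 for *Nfkb1* (edgeR adjusted p = 0.0997). In WT livers at 6 hours *Relb* was called lower (-1.80, edgeR adjusted p = 0.00946), a call lost without WT 0 h replicate 2 (-1.03, edgeR adjusted p = 0.106). Between genotypes at 24 hours edgeR called 0 of the 5, against 2.68% of all genes. Of the 5, 2 had an unadjusted p under 0.05, as did 23.4% of all genes, with *Nfkb2* at 1.08 (edgeR adjusted p = 0.0999) and *Relb* at 1.47 (edgeR adjusted p = 0.106).

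Of the 18 tested genes of other NF-kB inhibitors and feedback genes, 4 were called higher and 2 lower in SIRT1intKO livers at 24 hours (median 0.69). This stood against 11.9% higher and 11.1% lower of all genes. In WT livers 1 was called higher and 0 lower (median 0.29), against 8.32% and 7.4% of all genes, or 3 higher and 0 lower without WT 0 h replicate 2 (median 0.40). In SIRT1intKO livers *Nfkbie*, which encodes IkB-epsilon, rose by 2.32 (edgeR adjusted p = 2.56e-05, SE 0.405) and *Zc3h12a*, the RNA-degrading Regnase-1, by 1.49 (edgeR adjusted p = 0.00209, SE 0.390). In WT livers *Zc3h12a* had 1.07 (edgeR adjusted p = 0.0543), and it was called without WT 0 h replicate 2 (1.38, edgeR adjusted p = 0.0166) or SIRT1intKO 24 h replicate 4 (edgeR adjusted p = 0.0245). The genes called lower in SIRT1intKO livers were *Dusp1*, a phosphatase of MAP kinases (-1.91, edgeR adjusted p = 0.00104), and *Zfp36*, an RNA-destabilizing protein (-1.37, edgeR adjusted p = 0.00138). *Tnip2*, an A20-binding protein, rose in WT livers by 1.19 (edgeR adjusted p = 0.00889). *Tnip1*, another A20-binding protein, was called higher in SIRT1intKO than in WT livers at 24 hours (1.09, SE 0.237, edgeR adjusted p = 0.00975), and was below the fold threshold without SIRT1intKO 24 h replicate 2 (0.87) or replicate 4 (0.97).

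Of the 28 tested genes in a list of NF-kB targets, 23 were called higher and 0 lower in SIRT1intKO livers at 24 hours, and the median of the list was 2.27 on the log2 scale. In WT livers 7 were called higher and 1 lower, with a median of 0.41. Of all genes, 11.9% were called higher and 11.1% lower in SIRT1intKO livers, and 8.32% and 7.4% in WT livers. Without WT 0 h replicate 2, which had a mean log2 CPM of 2.94 over the 28 targets against 1.05 to 1.45 in the other 5 WT livers at 0 hours, 12 were called higher and 0 lower in WT livers, and the median was 1.28. The calls there numbered 8 with all libraries, and without WT 24 h replicate 2 they numbered 5, and with only the groups compared 4. In SIRT1intKO livers the count stayed between 20 and 24 in the fits that left out 1 library each. Among targets averaging at least 1 CPM, the largest changes in SIRT1intKO livers were those of *Lcn2* (8.51, edgeR adjusted p = 4.99e-11), an acute-phase siderophore binder, *Ccl2* (5.51, edgeR adjusted p = 1.74e-06), which attracts monocytes, *Cxcl2* (5.48, edgeR adjusted p = 9.08e-05), which attracts neutrophils, and *Saa3* (5.16, edgeR adjusted p = 4.89e-06). In WT livers they were those of *Lcn2* (8.26, edgeR adjusted p = 3.63e-10), *Ier3* (4.41, edgeR adjusted p = 0.000562), *Cxcl2* (3.81, edgeR adjusted p = 0.00404) and *Saa3* (3.69, edgeR adjusted p = 0.00059).

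At 6 hours 3 NF-kB targets were called higher and 4 lower in WT livers (median -0.36), and 5 higher and 0 lower in SIRT1intKO livers (median 0.03). Of all genes, 7.17% were called higher and 8.4% lower in WT livers, and 7.86% and 8.7% in SIRT1intKO livers. The WT result for the targets depended on WT 0 h replicate 2, without which 4 were called higher and 1 lower, with a median of 0.34. The 6 WT livers at 6 hours had a mean log2 CPM of 1.67 to 2.01 over the targets, all above the other 5 WT livers at 0 hours and below replicate 2. *Lcn2* and *Saa3* rose in both genotypes at 6 hours, in WT livers by 7.49 and 5.72 (edgeR adjusted p = 1.46e-10 and 2.37e-06). Compared directly at 24 hours, 6 of the 28 were called higher in SIRT1intKO livers and 0 lower (median 1.28), against 1.38% and 1.3% of all genes. They were led by *Cxcl10* (3.96, SE 0.815, edgeR adjusted p = 0.00779), *Ccl2* (3.59, SE 0.815, edgeR adjusted p = 0.0132) and *Vcam1* (1.56, SE 0.408, edgeR adjusted p = 0.0232), a call lost for *Vcam1* without SIRT1intKO 24 h replicate 2 (1.05, edgeR adjusted p = 0.062). The count of targets called was 9 without WT 0 h replicate 2, 15 without SIRT1intKO 24 h replicate 5, 11 without WT 24 h replicate 1, 3 without WT 24 h replicate 4 or SIRT1intKO 24 h replicate 2, and 0 with only the groups compared. The interaction at 24 hours was called by edgeR for 0 of the 28, where 15 had an unadjusted p under 0.05 (12.7% of all genes), and by DESeq2 for 5. *Relb*, *Nfkb2*, *Nfkbie*, *Birc3* and *Tnf* stand in this list and in another one.

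**Figure D5:**
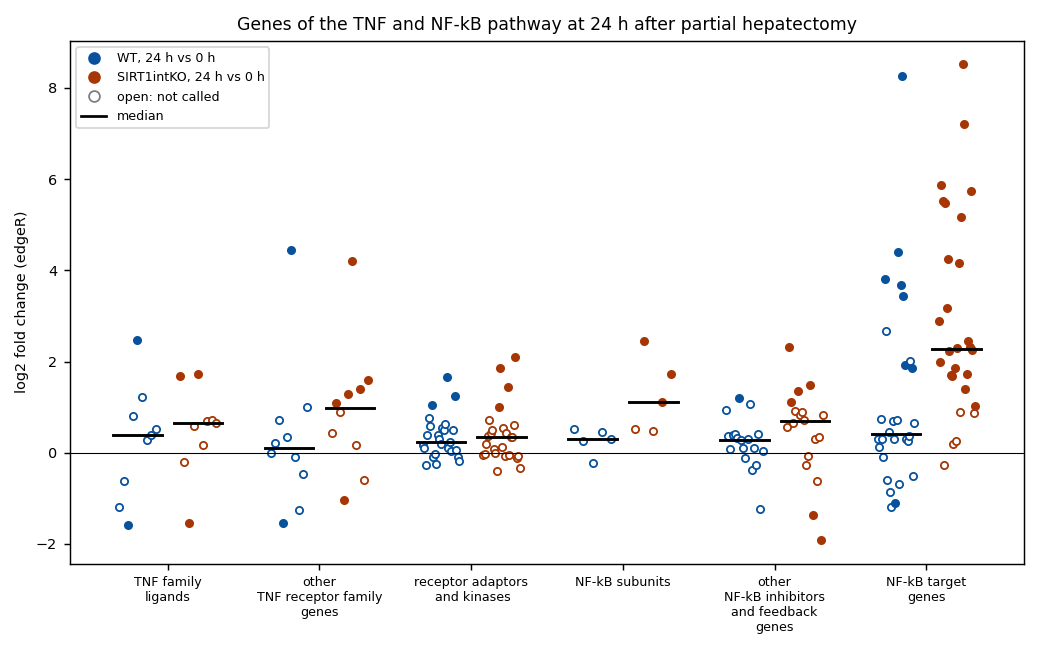
Log2 fold changes at 24 against 0 hours for the tested genes of 6 lists, a point for each gene in WT (blue) and SIRT1intKO livers (brown), filled where called, with black lines at the medians. The medians of the NF-kB target genes were 0.41 in WT and 2.27 in SIRT1intKO livers, and those of the receptor adaptors and kinases 0.24 and 0.34.

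Markers of other cells moved in the same livers. The summed level of 12 neutrophil markers was 6.91 to 23.1 CPM in WT and 4.34 to 21.4 in SIRT1intKO livers at 0 hours, and 5.92 to 59.6 (WT 6 h replicate 6, with 17.8 the next) and 9.46 to 17.1 at 6 hours. At 24 hours it was 126, 103, 14.8 and 8.66 in the 4 WT livers and 23.6 to 211 in 6 of the SIRT1intKO livers, with 959 in SIRT1intKO 24 h replicate 2. That liver was also the highest of its group for *Fas* (38.7 CPM). Of 7 neutrophil markers tested, 4 were called higher in WT and 7 in SIRT1intKO livers at 24 hours, against 8.32% and 11.9% of all genes. The neutrophil markers *Mpo*, *Ly6g*, *Camp*, *Elane* and *Ltf* had too few counts to test and were at 0 counts in 20, 17, 26, 8 and 14 of the 34 libraries. For 12 monocyte and macrophage markers the sum went from 73.2 to 113 CPM in WT and 72.7 to 154 in SIRT1intKO livers at 0 hours, through 48.8 to 124 and 42.2 to 60.0 at 6 hours, to 60.4 to 118 and 68.0 to 313 at 24 hours. Of these 12, 3 were called higher and 2 lower in WT livers at 24 against 0 hours, where 8.32% and 7.4% of all genes were. In SIRT1intKO livers 7 were called higher and 0 lower, against 11.9% and 11.1%. Between genotypes at 24 hours, 4 of the 12 were called higher in SIRT1intKO than in WT livers, against 1.38% of all genes.

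The sum of 8 cholangiocyte markers was 37.03 to 62.8 CPM in WT and 40.3 to 60.0 in SIRT1intKO livers at 0 hours, and 33.6 to 75.7 and 36.8 to 49.3 at 6 hours. At 24 hours it was 484, 265, 65.2 and 79.7 in the 4 WT livers, and 54.5 to 336 in SIRT1intKO livers. This division of the WT livers was seen for *Tnfrsf12a*, *Tnfrsf1b* and *Tnfrsf10b*. By a smaller margin the same pair was higher for *Tnfrsf1a* (194, 179, 129 and 122 CPM), *Ltbr* (117, 141, 108 and 101) and *Nfkbia* (31.5, 60.0, 20.9 and 23.3). For *Fas* that pair was lower. The division was also seen for the neutrophil markers and the mean log2 CPM of the NF-kB targets (3.15, 3.01, 1.77 and 1.68). Of the 7 cholangiocyte markers tested, 4 were called higher in WT and 5 in SIRT1intKO livers at 24 hours, against 8.32% and 11.9% of all genes. *Spp1* and *Sox9* gave the most counts, and *Krt19* was called in neither genotype. Over the 34 libraries, deviations from the group mean of the summed cholangiocyte markers and of the genes had a Pearson's r of 0.60 for *Tnfrsf12a*, 0.57 for *Tnfrsf1b* and 0.63 for *Tnfrsf10b*, and of 0.30 for *Tnfaip3* and 0.07 for *Ltbr*. For the neutrophil markers r was 0.68 for *Tnfrsf12a*, 0.45 for *Tnfrsf1b*, 0.31 for *Tnfrsf10b*, 0.39 for *Tnfaip3* and 0.002 for *Ltbr*. In the remaining lists some markers were called lower at 24 hours, when 7.4% of all genes were called lower in WT and 11.1% in SIRT1intKO livers. Of 10 markers of sinusoidal endothelium, 6 were called lower in either genotype and 1 higher in SIRT1intKO livers, and their sum went from 175 to 265 CPM at 0 hours to 64.0 to 164 in WT livers and from 196 to 309 to 94.1 to 191 in SIRT1intKO livers. Of 10 Kupffer cell markers, 5 were called lower in WT livers, and 2 lower and 1 higher in SIRT1intKO livers. The 3 tested of 12 lymphocyte markers gave 2 lower in WT and 3 lower in SIRT1intKO livers. All 12 summed to 6.57 to 8.97 CPM at 0 hours and 0.457 to 3.72 at 24 hours in WT livers. In SIRT1intKO livers the sums were 6.42 to 9.96 and 0.488 to 1.69, so correlations with them rest on few reads. Of 10 stellate cell markers 1 was lower in WT livers (median log2 fold change -0.36), and 2 lower and 1 higher in SIRT1intKO livers (median 0.19). Against the endothelial markers r was -0.63 for *Tnfrsf1b* and -0.50 for *Tnfrsf10b*, and against the lymphocyte markers it was -0.685 for *Nfkbia*, -0.61 for *Tnfrsf12a*, -0.60 for *Tnfrsf1b* and -0.59 for *Tnfrsf10b*. These values share libraries and are descriptions, and the part of other cells in the changes of the 9 genes was not tested. Hepatocyte markers, which define the tissue, summed to 68971 to 79566 CPM in WT livers at 0 hours, 35873 to 45447 at 24 hours, and 41384 to 77715 in SIRT1intKO livers at 24 hours, when 2 of 9 were called lower in WT and 1 in SIRT1intKO livers.

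Within groups, some of the 9 genes varied together. Deviations from the group means over the 34 libraries had a Pearson's r of 0.67 for *Nfkbia* and *Tnfaip3*, 0.64 for the neighbors *Tnfrsf1a* and *Ltbr*, 0.67 for *Tnfrsf1b* and *Tnfrsf12a*, and 0.65 for *Tnfrsf12a* and *Tnfrsf10b*. For *Tnfaip3* and *Tnfrsf12a* it was 0.50, and *Fas* had values from -0.40 to 0.34 with the other 8. Compared with 11414 genes of at least 1 CPM over all 34 libraries, the log2 CPM of *Tnfrsf1a* was most like that of *Syt12* (Pearson's r of 0.97), *Lrg1* and *Ung*, that of *Tnfrsf12a* like *Specc1* (0.96), *Tubb6* and *Chmp4c*, and that of *Tnfrsf10b* like *Coro1c* (0.93), *Dnttip1* and *Mapk7*. *Ltbr* was most like *Faap20* (0.92), *Cyb561* and *Sec61a1*, and *Tnfrsf1b* like *H3f3b* (0.89), *Per1* and *Mapk6*. *Tnfaip3* was most like *Icam1* (0.91), *Tlr2* and *Ccl2*, and *Nfkbia* like *Map3k8* (0.74), *Nfe2l2* and *Mxd1*. For *Tnfrsf21* (*Cap1*, 0.75, *Calm3* and *App*) and *Fas* (*Naa38*, 0.77, and *Crp*) the likeness was weaker. These correlations contain the group differences and carry no test.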

How the data were processed

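Whole-liver RNA of 34 mice was sequenced from poly(A)-selected, stranded libraries. The authors deposited a table of expected counts per gene for 78298 genes. The submitters' processing notes name STAR, Salmon and GRCm39, and no normalization had been applied to the table. In it 4.97% of values were not whole, and these were rounded. Of 35 library columns, 1 matched no sample label and was not used. The letter x was missing from the gene symbols, and Ensembl identifiers were used to restore 1316 symbols, 705 of them of tested genes. GRCm38.p6 served for promoter windows and gene neighbors only, GENCODE vM21 for exon lengths, and gene coordinates on GRCm39 were not used here.

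Groups were taken from the sample labels. Counts were scaled by TMM and filtered by edgeR's filterByExpr, leaving 14980 genes, and edgeR 4.0.16 (R 4.3.3) fitted 1 mean per group over all 34 libraries with its quasi-likelihood test. P-values were two-sided and adjusted by Benjamini-Hochberg over all 14980 genes, and genes were called where the adjusted p was below 0.05 and the log2 fold change exceeded 1 in size. Log2 CPM used a prior count of 2. The scripts were tested on simulated data. Depth had a median of 16807340 counts, and the common biological coefficient of variation was 0.302. The labels number the libraries as biological replicates, here taken as 1 mouse each, so p-values measure the spread between mice within a group. No 2 libraries agreed within counting noise.

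Alternatives were DESeq2 1.42.0, RLE and upper-quartile scaling, filters of at least 1 count in any or 10 counts in every library, only the groups compared, no fold threshold, glmTreat, the replicate number as a block, and leaving out each library. Leaving out WT 0 h replicate 2 and SIRT1intKO 24 h replicate 4 together was added after seeing the data, as were the lists without the 3 libraries that stand apart. The 9 genes and the gene lists were chosen with earlier results of these data known. All 9 genes are named in the text. From each list at most the 4 genes with the largest absolute log2 fold change among those called with a mean of at least 1 CPM are named per comparison, as well as *Tnf* and the NF-kB subunits. *Tnfsf12*, *Tnfsf10*, Fasl and Lta were named as ligands of the receptors after their values were seen. For likeness, up to 3 genes with the highest Pearson's r are named for each of the 9 genes, and 1 item is not reported here.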

Additional observations from a re-analysis of the deposited data

Results flagged for a closer look

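In 10 of the 60 sets of libraries looked at (the 9 genes and *Tnf* in 6 groups), the highest library lay far from the others of its group by Dixon's test. Chance gives about 5% for independent sets with a normal spread. The test used CPM without logs, which can be skewed, and the sets share libraries, so the 5% is only a guide. WT 0 h replicate 2 accounted for 6 of the 10 sets. It had 86.5 CPM of *Tnfrsf1a* (the next library had 62.9), 14.9 of *Tnfrsf12a* (7.87), 25.7 of *Fas* (17.1), 81.9 of *Nfkbia* (47.8), 21.9 of *Tnfaip3* (1.85) and 1.69 of *Tnf* (0.30). These genes were high in the same untreated liver.

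SIRT1intKO 24 h replicate 4 had 130.5 CPM of *Nfkbia* (52.0) and 96.0 of *Tnfaip3* (38.5). SIRT1intKO 24 h replicate 2 had 38.7 CPM of *Fas* (19.03). WT 24 h replicate 1 had 8.49 CPM of *Tnfaip3* (3.09).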

How the results depend on the processing

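Of 566 values of the 9 genes under settings other than leaving out 1 library, 532 kept their direction and side of the threshold, 19 lost a call, 4 gained one and 11 changed sign. Of 2176 values with 1 library left out, the counts were 2102, 17, 26 and 31. The number of the 9 genes called changed by more than 1.5 times as follows. Without the fold threshold it was 4 in WT livers at 6 against 0 hours and 7 in SIRT1intKO livers at 24 against 0 hours. With at least 10 counts in every library, which removes *Tnfrsf10b*, it was 2 in WT livers at 24 against 0 hours, and 1 at 24 against 6 hours in either genotype. With glmTreat it was 2 for WT at 24 against 0 hours, 1 for WT and 0 for SIRT1intKO at 24 against 6 hours, and 0 between genotypes at 24 hours. With only the groups compared it was 1 for WT at 24 against 6 hours and 0 between genotypes at 24 hours, which was also 0 with every gene of at least 1 count. The interaction at 24 hours had 1 call with DESeq2. With 1 library left out the ranges were 3 to 5 for WT livers at 24 against 0 hours, 3 to 4 for SIRT1intKO livers at 6 against 0 hours, 1 to 2 for WT and 1 to 3 for SIRT1intKO livers at 24 against 6 hours, and 0 to 1 for the genotypes and the interaction at 24 hours. The causes were not tested.

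With both high libraries left out, *Tnfaip3* had 0.88 and 1.71 in WT livers at 6 and 24 hours and 0.50 between genotypes at 0 hours, and *Tnfrsf21* had -0.0334 and *Fas* 0.0062 in WT livers at 6 hours. *Tnfrsf21* there was -0.0039 under the filter of 10 counts in every library, and *Fas* in SIRT1intKO livers at 6 hours was 0.0043 with every gene of at least 1 count and 0.0078 with only the groups compared. With 1 library left out, the log2 fold changes that changed sign ran, in WT livers at 6 hours, from -0.0861 to 0.0525 for *Tnfrsf21*, -0.30 to 0.0053 for *Fas* and -1.30 to 0.88 for *Tnfaip3*, and at 24 hours from -0.41 to 0.0638 for *Fas* and -0.69 to 1.70 for *Tnfaip3*. *Nfkbia* in WT livers at 24 against 6 hours ran from -0.29 to 0.33. *Fas* in SIRT1intKO livers ran from -0.0984 to 0.0518 at 6 hours and -0.14 to 0.28 at 24 hours. Between genotypes, *Tnfaip3* ran from -1.84 to 0.49 at 0 hours, and at 24 hours *Tnfrsf12a* ran from -0.25 to 0.58, *Tnfrsf10b* from -0.92 to 0.28 (the latter without WT 24 h replicate 1) and *Tnfrsf21* from -0.038 to 0.20.

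Replicate numbers did not pair the libraries, since the 76 same-numbered pairs had a median r of -0.0036 (-0.31 to 0.22) and 2 libraries correlated best with their own number. With the replicate block, 1 gene was called at 24 against 6 hours in either genotype and 0 between genotypes at 24 hours (*Tnfaip3* 2.75, edgeR adjusted p = 0.0817), *Tnfaip3* in WT livers at 24 hours had 0.29, *Nfkbia* in WT livers at 24 against 6 hours -0.048, and *Tnfrsf21* between genotypes at 24 hours -0.0061. Depth limits *Tnfrsf10b* most, with under 10 counts in 18 libraries.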
